A study of Mus musculus with 13 samples.

Results

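MHC class I antigen presentation was followed across the lungs of mice treated with bleomycin through 7 genes: H2-K1, H2-D1, B2m, Tap1, Tap2, Tapbp and Nlrc5. They were picked out by symbol, with earlier results of these data known, from 20270 protein-coding genes in the tables of estimated counts and TPM. All 7 were present and all 7 were among the 15315 genes with enough counts to be tested. RNA-seq was done on whole lung tissue (the lower right lobe) from 13 mice. The 4 control mice were wildtype (wt), 13-week-old male C57BL/6J animals that had received the saline vehicle. The 5 WT bleomycin mice had the same genotype and had received oropharyngeal bleomycin, 1 U per kg, 14 days earlier. The 4 CB1R KO bleomycin mice carried the Cnr1-/- deletion, on a C57Bl/6J background, and had received the same dose at the same time before collection. No CB1R KO mice without bleomycin are analysed here, so the effect of the genotype alone cannot be told apart from its effect on the response to bleomycin. Mouse numbers follow the sample titles. Control mice are 3, 21, 24 and 26, WT bleomycin mice are 4, 2, 5, 4-B2 and 7, and CB1R KO bleomycin mice are 8, 9, 10 and 11. Whether 4 and 4-B2 came from different animals is not stated, and they are counted as separate mice. The titles of control mouse 26 and WT bleomycin mice 4-B2 and 7 hold capital letters, and all other titles are in lower case. No CB1R KO title holds capitals, so this label style is not spread evenly over the groups, and what it stands for is not stated.

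Class I molecules present peptides from inside the cell to CD8 T cells, and almost every nucleated cell makes them. The proteasome cuts cytosolic proteins into peptides, the TAP transporter carries these into the endoplasmic reticulum, and a loading complex places them on a heavy chain bound to beta-2 microglobulin. NLRC5 drives transcription of class I genes, and interferon gamma raises it further. Bleomycin injures the alveolar epithelium and is followed by inflammation and fibrosis, and CB1R is the receptor for endocannabinoids encoded by Cnr1.

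Of the 13 libraries, 12 held between 14615904 and 16662580 estimated counts, and CB1R KO mouse 11 was sequenced 3.33 times deeper than the median of the others, with 53463884. Markers of alveolar type II cells summed to between 12152 and 22633 CPM in every library, so the labelled tissue was matched by its defining epithelial markers. Cnr1 was counted in every library, at 2.47 to 5.63 CPM in CB1R KO bleomycin and 3.46 to 6.97 CPM in WT bleomycin mice, with a log2 difference of -0.53 ± 0.28 (SE, edgeR adjusted p = 0.367). A count per gene does not separate the deleted part of Cnr1 from the rest, so these values do not check the genotype labels. Cardiac muscle markers summed to 653 to 1627 CPM in control, 108 to 438 in WT bleomycin and 442 to 787 in CB1R KO bleomycin libraries.

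H2-K1 and H2-D1 encode the classical heavy chains, and their promoters are shown because these were the members that passed the test. In the RefSeq table (GRCm38.p6), 5 of the 7 members had a window from 250 bases before to 50 after the transcript start, and the stretches upstream of the start are given for 4 of them, 5′ to 3′ on the gene's own strand. Capitals mark matches, on either strand, to GGGNNTTCC (an NF-kB-type sequence), GATTGG (a Y-box-type sequence), TGACG (a CRE-like sequence) and GAAANNGAA (an interferon-response-type sequence). These names describe the letters searched, not the element at that place. No matches overlapped. H2-K1 is shown at chr17:34000334-34000468 (minus strand), H2-D1 at chr17:35262913-35263056 (plus strand), B2m at chr2:122147538-122147648 (plus strand) and Tap1 at chr17:34187324-34187484 (plus strand).
H2-K1: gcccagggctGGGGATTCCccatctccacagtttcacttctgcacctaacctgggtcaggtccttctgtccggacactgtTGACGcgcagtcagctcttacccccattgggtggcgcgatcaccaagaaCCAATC
H2-D1: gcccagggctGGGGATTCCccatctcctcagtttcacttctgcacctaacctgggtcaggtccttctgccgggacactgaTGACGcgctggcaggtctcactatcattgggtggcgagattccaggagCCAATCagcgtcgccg
B2m: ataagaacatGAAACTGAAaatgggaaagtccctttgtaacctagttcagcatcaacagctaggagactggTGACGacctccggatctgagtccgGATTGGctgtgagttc
Tap1: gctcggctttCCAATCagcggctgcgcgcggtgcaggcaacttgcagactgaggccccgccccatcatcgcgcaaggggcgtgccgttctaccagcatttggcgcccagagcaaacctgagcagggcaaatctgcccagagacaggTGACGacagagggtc

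The H2-K1 and H2-D1 stretches were identical at 119 of 134 aligned bases (88.8%) and held GGGNNTTCC, TGACG and GATTGG in the same order. Both also held attgggtgg between TGACG and GATTGG, which the GATTGG search did not mark. In the same way, both held tttcacttc between GGGNNTTCC and TGACG, which the GAAANNGAA search did not mark. The lack of a GAAANNGAA match in H2-K1 and H2-D1 therefore does not show that they lack an interferon-response-type sequence. B2m held GAAANNGAA, TGACG and GATTGG, and Tap1 held GATTGG and TGACG. Of all 32851 promoter windows in the table, 5.82% held GGGNNTTCC, 16.1% GATTGG, 20.8% TGACG and 8.56% GAAANNGAA. The Tapbp window held none of the 4. A match describes the letters and is not a measured binding site.

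The 7 members covered a wide range of expression, from one of the most abundant transcripts of the lung to one of moderate level. On the TPM scale, which corrects for transcript length, B2m had the highest level (mean 2434 TPM over 13 libraries, rank 25 of all genes), followed by H2-K1 (1318 TPM) and H2-D1 (1250 TPM), at ranks 60 and 65. Tapbp followed at 176 TPM, Tap1 at 49.9, Tap2 at 22.3 and Nlrc5 at 9.67. B2m was above H2-K1 in 13 of 13 libraries, and every step of the order from H2-D1 down to Nlrc5 also held in 13 of 13 libraries with ranges that did not overlap. H2-K1 and H2-D1 were the only neighbours with overlapping ranges, with H2-K1 higher in 11 of 13 libraries.

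H2-K1 and H2-D1 were highest in the CB1R KO bleomycin lungs, and these were the 2 members that differed from control. H2-K1 stood at 1090, 1080, 1202 and 1088 CPM, counts scaled to a common library size, in control mice 3, 21, 24 and 26. It stood at 1314, 1169, 1141, 1237 and 1242 CPM in WT bleomycin mice 4, 2, 5, 4-B2 and 7, and at 1392, 1280, 1446 and 1405 CPM in CB1R KO bleomycin mice 8, 9, 10 and 11. All 4 CB1R KO bleomycin mice lay above all control mice, while the WT bleomycin mice overlapped both other groups. Between CB1R KO bleomycin and control, H2-K1 rose by a log2 fold change of 0.31 ± 0.07 (SE, 1.24-fold, edgeR quasi-likelihood test, adjusted p = 0.00302), with a 95% interval of 0.16 to 0.45. Among the libraries with lower-case labels alone, the log2 fold change was 0.30 (edgeR adjusted p = 0.0194), and it was called in all 25 alternatives tried. In RNA from whole tissue, fewer cells of a type cannot be told apart from less RNA per cell.

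H2-D1 gave the same order of groups with smaller differences. It was at 1494, 1411, 1486 and 1463 CPM in control, 1608, 1434, 1472, 1557 and 1580 CPM in WT bleomycin and 1711, 1612, 1668 and 1657 CPM in CB1R KO bleomycin mice, in the order of mice given above. The 4 CB1R KO bleomycin values lay above every control value and above every WT bleomycin value. H2-D1 was 1.14-fold higher in CB1R KO bleomycin than in control (log2 0.18 ± 0.06 SE, edgeR adjusted p = 0.0288). This call did not hold without control mouse 21 (edgeR adjusted p = 0.0788), 24 (0.0511) or 26 (0.0631), without CB1R KO mouse 8 (0.0579), with edgeR fitted to these 2 groups only (0.0513), or among the libraries with lower-case labels (0.0772).

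**Figure D1:**
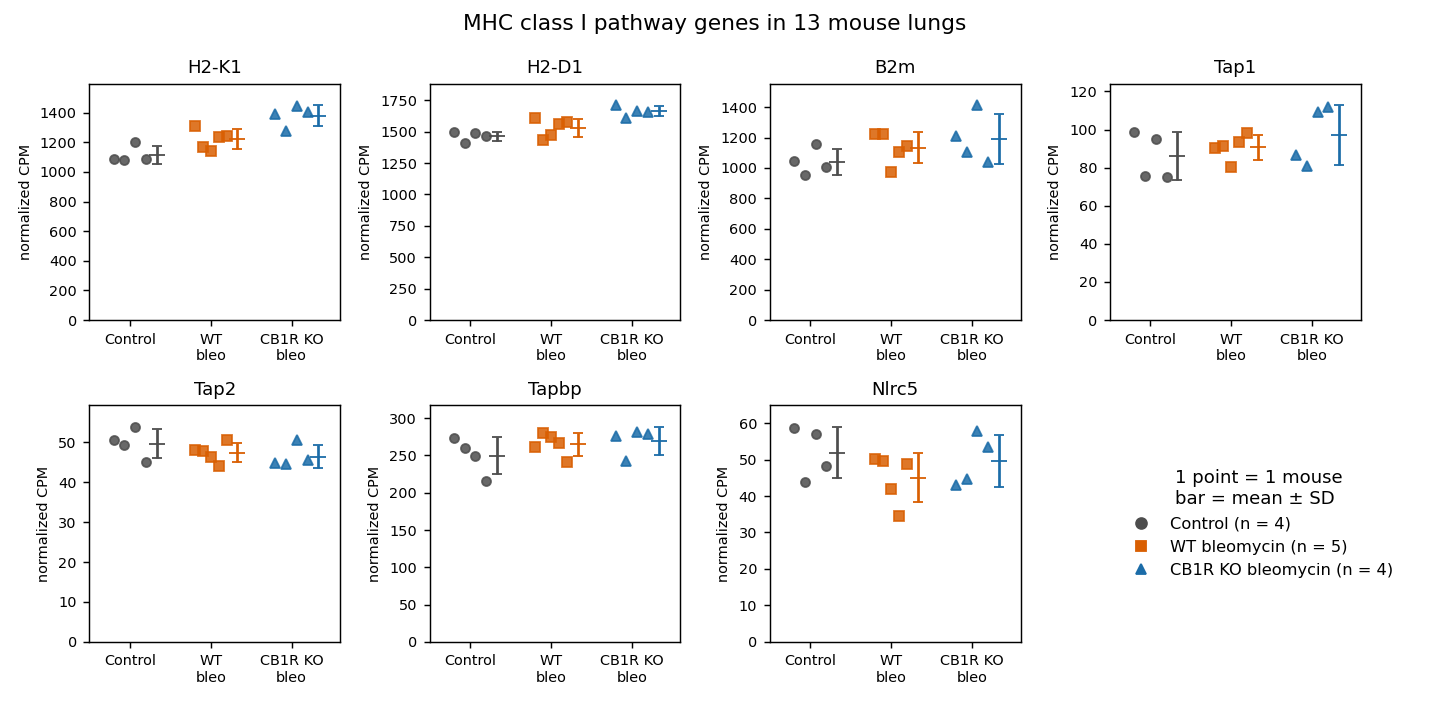
Normalized CPM of the 7 class I members (y axis from 0) in each mouse (points) of the control, WT bleomycin and CB1R KO bleomycin groups, with the group mean and SD as a bar. For H2-K1 and H2-D1 the 4 CB1R KO bleomycin mice lie above the 4 control mice, whereas the groups overlap in the other 5 genes.

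In this comparison 2 of the 7 members were called, both higher, where 19% of all tested genes were called higher, 16.3% lower and 35.4% in either direction. Groups without overlap and with CB1R KO bleomycin on the higher side were seen for the same 2 members and for 17.7% of all genes. The median log2 fold change of the members was 0.18, beside -0.01 over all genes tested. Read against these shares, 2 calls among 7 genes do not set the members apart from the rest of the transcriptome.

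Bleomycin in WT mice moved none of the 7 members past the threshold, although 48.9% of all genes were called in that comparison, 25% higher and 23.9% lower. With edgeR, 0 of 7 also had an unadjusted p under 0.05, where 55.2% of all genes had one, and DESeq2 and limma called 0 of 7 as well. Against control, H2-K1 was 1.09-fold higher in WT bleomycin mice (log2 0.13 ± 0.06 SE, edgeR adjusted p = 0.109) and H2-D1 1.05-fold (log2 0.06 ± 0.06, adjusted p = 0.375). The 95% interval of H2-K1 ran from -0.525% to 20.5% and that of H2-D1 from -3.96% to 13.9%, so rises above these limits lay outside the intervals.

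B2m, the light chain shared by all class I molecules, was more variable between mice than the heavy chains. It was at 1043, 956, 1155 and 1004 CPM in control, 1225, 1224, 974, 1103 and 1142 CPM in WT bleomycin, and 1210, 1104, 1413 and 1038 CPM in CB1R KO bleomycin mice. The groups overlapped, and CB1R KO mice held the highest value (mouse 10) as well as 2 within the control range (mice 9 and 11). The log2 difference was 0.13 ± 0.10 (SE) between WT bleomycin and control (edgeR adjusted p = 0.305) and 0.20 ± 0.10 between CB1R KO bleomycin and control (adjusted p = 0.148).

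Tap1 and Tap2 encode the 2 subunits of the peptide transporter. Tap1 was at 98.8, 75.6, 95 and 75.2 CPM in control, 90.2, 91.5, 80.2, 93.4 and 98.2 CPM in WT bleomycin and 86.5, 80.8, 109 and 112 CPM in CB1R KO bleomycin mice. Mice 10 and 11 lay above every other mouse, and mice 8 and 9 lay within the control range. Tap2 ranged from 45.2 to 53.9 CPM in control, 44.1 to 50.5 in WT bleomycin and 44.6 to 50.6 in CB1R KO bleomycin mice, so the 3 groups covered nearly the same interval. The log2 differences from control were 0.07 ± 0.11 (SE) for Tap1 and -0.07 ± 0.07 for Tap2 in WT bleomycin mice (edgeR adjusted p = 0.609 and 0.405), and 0.18 ± 0.12 and -0.10 ± 0.07 in CB1R KO bleomycin mice (0.262 and 0.279). On the TPM scale with limma the Tap2 differences from control had the opposite sign (0.07 and 0.06), and neither was called. In limma on log2(TPM + 1) the median over all genes was 0.03 for WT bleomycin and 0.07 for CB1R KO bleomycin, beside -0.01 for both with edgeR.

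Tapbp encodes tapasin, which bridges TAP and the heavy chain and edits the peptide. Its range was 216 to 274 CPM in control, 241 to 280 in WT bleomycin and 242 to 282 in CB1R KO bleomycin mice, and mouse 9 was lowest of the CB1R KO mice. The log2 differences were 0.08 ± 0.07 (SE) for WT bleomycin and 0.11 ± 0.08 for CB1R KO bleomycin against control (edgeR adjusted p = 0.371 and 0.281). Nlrc5, the transactivator, was at 58.7, 43.9, 56.9 and 48.2 CPM in control, 50.2, 49.6, 41.9, 34.5 and 48.7 CPM in WT bleomycin and 42.9, 44.6, 57.9 and 53.4 CPM in CB1R KO bleomycin mice. WT bleomycin mouse 4-B2 had the lowest value of all, and the groups overlapped. With log2 differences of -0.21 ± 0.13 (SE) and -0.06 ± 0.13 from control (edgeR adjusted p = 0.193 and 0.751), Nlrc5 had the widest interval of the 7 members, from -0.48 to 0.06 for WT bleomycin.

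**Figure D2:**
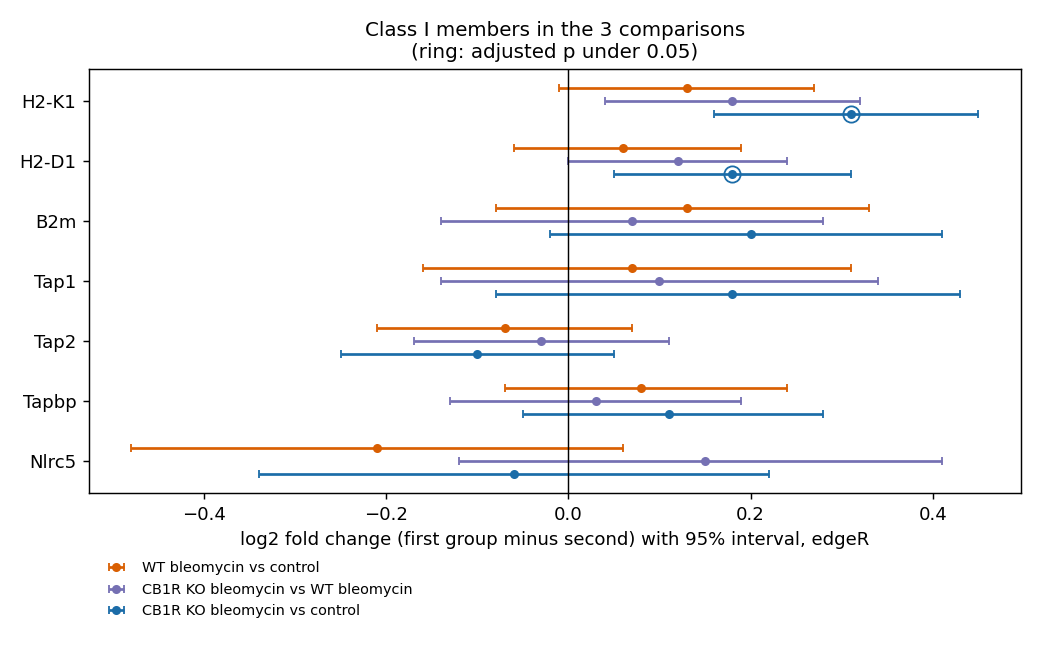
Log2 fold change (x axis, first group minus second) with its 95% interval from edgeR for the 7 class I members (y axis) in the 3 comparisons, with a ring where the adjusted p was under 0.05. The rings mark H2-K1 (0.31) and H2-D1 (0.18) between CB1R KO bleomycin and control.

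The comparison of CB1R KO with WT bleomycin lungs asks how bleomycin-treated lungs with and without the receptor differed. None of the 7 members was called by edgeR, where 0.979% of all genes were called, 0.359% higher and 0.62% lower in CB1R KO mice, and 1 of 7 had an unadjusted p under 0.05, as did 17% of all genes. That member was H2-K1, 1.13-fold higher in CB1R KO mice (log2 0.18 ± 0.06 SE, edgeR adjusted p = 0.181), with 3 of the 4 CB1R KO mice above all 5 WT mice. DESeq2 fitted to all libraries called it with an adjusted p of 0.0487, and over the 25 alternatives the adjusted p of this difference ran from 0.0487 to 0.464.

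For H2-D1 all 4 CB1R KO values were above all 5 WT bleomycin values, as for 2.5% of all genes, yet the log2 difference of 0.12 ± 0.06 (SE) was not called (edgeR adjusted p = 0.308). The other 5 members had log2 differences between -0.03 (Tap2) and 0.15 (Nlrc5), with edgeR adjusted p from 0.593 to 0.878. Their intervals still allowed sizeable differences, as wide as -8.2% to 33.2% for Nlrc5, and -11.2% to 7.91% for Tap2. With the deeply sequenced library of CB1R KO mouse 11 thinned to the depth of the others, the H2-K1 and H2-D1 calls were the same in all 3 comparisons. The median log2 difference of the members was 0.10, beside 0.00 over all genes.

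Markers of other cells moved between the same groups. Between CB1R KO bleomycin and control, the comparison in which H2-K1 and H2-D1 were called, the summed levels of 7 of 16 marker lists did not overlap, 2 higher and 5 lower in CB1R KO bleomycin lungs. Beside the markers called in this comparison, 19% of all tested genes were higher and 16.3% lower. Single genes without overlap on the higher side made up 17.7% of those tested, and no such share was worked out for summed lists. Fibroblast markers, 4 of 6 of them called higher, summed to 4363 to 7193 CPM against 1429 to 1848 in control, and those of monocyte-derived macrophages, 7 of 8 higher, to 805 to 1284 against 358 to 498. Endothelial markers, 5 of 7 lower, summed to 2742 to 3140 against 3627 to 4513 CPM, airway secretory markers, 2 of 4 lower, to 8895 to 10134 against 18744 to 21324, and T and NK cell markers, 6 of 10 lower, to 79.4 to 83.1 against 96.8 to 140. The other lists without overlap were lower too. Red blood cell markers, 4 of 5 lower, summed to 2555 to 5003 against 5550 to 6802 CPM. Ciliated cell markers, 2 of 5 lower, summed to 152 to 205 against 206 to 244 CPM. The 5 leukocyte markers, 2 higher and 0 lower, overlapped, with sums of 882 to 1085 against 708 to 1148 CPM. Between CB1R KO and WT bleomycin lungs, 3 of 16 marker lists did not overlap, all 3 higher in CB1R KO lungs. Cardiac muscle markers, 0 of 6 called, summed to 442 to 787 against 108 to 438 CPM. Of 7 type II cell markers, 3 were called higher in CB1R KO than in WT bleomycin lungs, beside 0.359% of all tested genes. Their summed levels were 14274 to 22170 and 12152 to 13927 CPM. Of 10 T and NK cell markers, 3 were higher in the same comparison, with summed levels of 79.4 to 83.1 against 48 to 71.3 CPM, and no marker in any of these lists was at 0 in every library. The part of these cells in the H2-K1 and H2-D1 values was not tested.

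Because the members work as pairs and complexes, 3 ratios of TPM values were compared, in 9 tests. The ratio of H2-K1 to H2-D1 was 0.953, 1.01, 1.06 and 0.979 in control mice, 1.07, 1.07, 1.03, 1.05 and 1.04 in WT bleomycin mice and 1.07, 1.05, 1.14 and 1.14 in CB1R KO bleomycin mice. WT bleomycin mice lay within a narrow band, with mice 4 and 2 above every control mouse and the other 3 within the control range. The mean ratio was 0.999 ± 0.0455 (SD, n = 4), 1.05 ± 0.0175 (SD, n = 5) and 1.1 ± 0.0457 (SD, n = 4) in that order. Two-sided exact permutation tests gave p = 0.0476 for WT bleomycin against control, 0.0714 for CB1R KO against WT bleomycin and 0.0571 for CB1R KO bleomycin against control, each with an adjusted p of 0.214 over the 9 tests. None of these passed the threshold after adjustment.

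The ratio of heavy chain (H2-K1 plus H2-D1) to B2m was near 1 in all groups, with means of 1.05 ± 0.0507 (SD, n = 4) for control mice, 1.04 ± 0.094 (SD, n = 5) after bleomycin in WT mice and 1.11 ± 0.157 (SD, n = 4) in their CB1R KO counterparts. CB1R KO mouse 11 had the highest ratio (1.32) and WT bleomycin mouse 2 the lowest (0.899). Tap1 exceeded Tap2 in every library, with ratios of 1.88 to 2.37 in control, 2.01 to 2.36 in WT bleomycin and 2.12 to 2.86 in CB1R KO bleomycin mice. The adjusted p of these 6 exact permutation tests ran from 0.257 to 0.817.

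**Figure D3:**
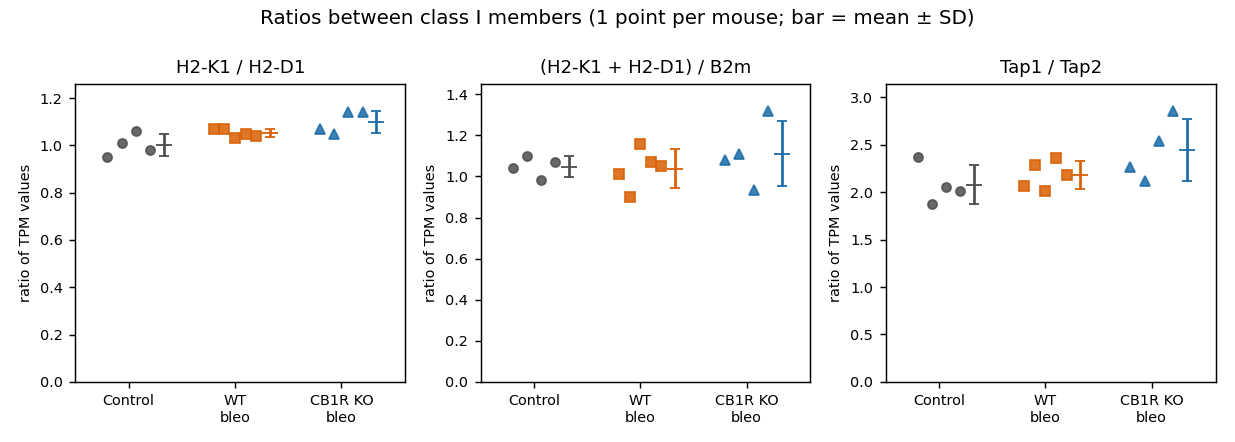
Ratios of TPM values between class I members (y axis from 0) in each mouse (points) of the 3 groups, with mean and SD as a bar. H2-K1 to H2-D1 averages 0.999, 1.05 and 1.1 in control, WT bleomycin and CB1R KO bleomycin, heavy chain to B2m stays near 1, and Tap1 to Tap2 lies between 1.88 and 2.86.

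Reads shared between related genes bear on the heavy chain values. In the GENCODE M21 protein-coding transcripts (GRCm38), 19.7% of the 31-base words of H2-K1 also occurred in another gene (14.3% in H2-D1), and 26% of those of H2-D1. Kallisto divides such reads between genes by estimation. B2m and Nlrc5 shared no 31-base word with another gene, and Tap1 shared 6.11% with Psmb9, its neighbour. For some of the nonclassical class Ib genes the share was larger, at 39.3% for H2-Q6 and 51.3% for H2-T22, and for others smaller, at 6.2% for H2-T24. Of the H2-T22 words, 44.8% occurred in H2-T10, a symbol absent from these data. A share of words does not give the size of the error in a value.

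The other genes of the pathway were followed in 9 lists, first between WT bleomycin and control, where the 25% higher and 23.9% lower among all tested genes are the shares to set beside each count. Of 14 class Ib heavy chains tested, 7 were lower, 1 was higher and 6 were not called (list median log2 -0.29, all genes -0.01). H2-Q6 fell from 224 to 344 CPM in control to 117 to 184 CPM in WT bleomycin mice (log2 -0.94 ± 0.15 SE, edgeR adjusted p = 0.000117), and H2-T24 fell from 29.6 to 38 CPM to 12.9 to 21.6 CPM (log2 -0.89 ± 0.13, adjusted p = 8.44e-05). Neither group overlapped with the other. H2-Q10, at 2.31 to 11.6 CPM in control mice, fell to 0.741 to 1.73 CPM (log2 -2.38 ± 0.48, edgeR adjusted p = 0.000888), and H2-M2 rose from 0.897 to 3.48 CPM to 4.01 to 11.7 CPM (log2 2.28 ± 0.41, edgeR adjusted p = 0.000402).

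H2-K1 and H2-D1 made up 69.9% to 73.1% of the TPM of H2-K1, H2-D1 and 17 H2-Q, H2-T and H2-M genes in control mice. This share was 77.5% to 79% in WT bleomycin and 74.8% to 78.3% in CB1R KO bleomycin mice, and it is given as a description, with no test. In CB1R KO bleomycin against WT bleomycin mice, H2-Q6 and H2-T24 were at log2 0.59 ± 0.15 (SE) and 0.52 ± 0.13 (edgeR adjusted p = 0.0686 and 0.0753). Both were called by DESeq2 (0.00638 and 0.0118 on all libraries) and by edgeR without WT bleomycin mouse 4 (0.0355 and 0.0335).

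In the loading list, of peptide loading and trimming in the endoplasmic reticulum, 6 of 9 genes were higher and 0 lower after bleomycin in WT mice (list median log2 0.39). Calr, encoding calreticulin, rose from 381 to 459 CPM to 602 to 754 CPM (log2 0.72 ± 0.09 SE, edgeR adjusted p = 2.31e-05). Pdia3, the disulfide isomerase of the loading complex, rose from 427 to 446 CPM to 605 to 677 CPM (log2 0.55 ± 0.07, edgeR adjusted p = 2.64e-05). The other genes named by rank were the general chaperone Hspa5 (log2 0.60) and the translocon subunit Sec61a1 (log2 0.45), also called. All of these serve other secreted and membrane proteins too. The 3 genes not called were Erap1 (log2 0.04 ± 0.06 SE, edgeR adjusted p = 0.597), Tapbpl (-0.11 ± 0.07, adjusted p = 0.202) and Ganab (0.08 ± 0.05, adjusted p = 0.181).

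The proteasome genes rose in part. The constitutive catalytic subunits Psmb5, Psmb6 and Psmb7 were all 3 higher in WT bleomycin lungs (log2 0.58 ± 0.10, 0.47 ± 0.07 and 0.43 ± 0.06 SE, edgeR adjusted p = 0.000209, 0.000122 and 6.73e-05). Of 5 immunoproteasome and activator genes 3 were higher: the activator subunits Psme2 (log2 0.43 ± 0.08, edgeR adjusted p = 0.000436) and Psme1 (0.24 ± 0.08, adjusted p = 0.0251) and the catalytic subunit Psmb8 (0.29 ± 0.11, adjusted p = 0.0458). Psmb10 was at log2 -0.04 ± 0.09 (edgeR adjusted p = 0.72).

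The Psmb8 call did not hold without control mouse 21, 24 or 26 or WT bleomycin mouse 4, 2, 4-B2 or 7, where its edgeR adjusted p was 0.0935, 0.0615, 0.132, 0.073, 0.0628, 0.101 and 0.0506. It was also lost with no filter (0.0556), upper-quartile factors (0.0576), label style as a batch term (0.0584) and among the libraries with lower-case labels alone (log2 0.20, adjusted p = 0.274). The Psme1 call did not hold without control mouse 21 or 26 or WT bleomycin mouse 2 (edgeR adjusted p = 0.0601, 0.0848 and 0.0519), or among the libraries with lower-case labels (0.11).

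Upstream of the members lie the interferon pathway and the factors that act on class I promoters. Of 14 interferon ligands, receptors and signalling genes tested, 4 were higher and 2 lower in WT bleomycin lungs, a share near the 48.9% called among all genes, so the count does not set the list apart. Ifng itself had at most 22.9 estimated counts in any library and was not tested. The gamma receptor chain Ifngr2 rose (log2 0.57 ± 0.07 SE, edgeR adjusted p = 9e-06), as did the kinase Jak2 (0.31 ± 0.06, adjusted p = 0.00033). Irf1, a transcription factor that acts on class I promoters, fell from 125 to 139 CPM to 88.9 to 114 CPM (log2 -0.40 ± 0.08, edgeR adjusted p = 0.000969), and Irf2, its antagonist, fell too (-0.39 ± 0.08, adjusted p = 0.000989). In limma on log2(TPM + 1) and log2(TPM + 0.1) Irf2 was not called (adjusted p = 0.0944 and 0.105).

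Of 14 other regulators of class I transcription, 3 were higher and 1 lower, a smaller share than the 48.9% among all genes. The NF-kB subunits Relb (log2 1.04 ± 0.16 SE, edgeR adjusted p = 8.8e-05) and Nfkb2 (0.86 ± 0.10, adjusted p = 9.98e-06) rose, as did Ezh2, the methyltransferase of Polycomb (0.95 ± 0.14, adjusted p = 8.99e-05). Creb1, which binds CRE sequences, fell (log2 -0.29 ± 0.07, edgeR adjusted p = 0.0043), and it was not called in limma on log2(TPM + 1) or log2(TPM + 0.1) (adjusted p = 0.32 and 0.327) or among the libraries with lower-case labels (edgeR adjusted p = 0.0704).

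Interferon-induced genes were not uniform. Of 19 tested, 8 were higher and 3 lower in WT bleomycin lungs (list median log2 0.24). The chemokine Cxcl10 rose from 1.02 to 1.55 CPM in control to 12.9 to 18.1 CPM (12.1-fold, log2 3.60 ± 0.28 SE, edgeR adjusted p = 3.02e-07). Isg15, a ubiquitin-like modifier, rose 3.37-fold, the RNA sensor Oas1a 2.89-fold and Ifit1, which binds viral RNA, 2.40-fold (edgeR adjusted p = 1.59e-06, 2.14e-06 and 1.13e-05). Of the 10 interferon-induced GTPase genes in the list, 3 were lower, 1 was higher and 6 were not called. Among all tested genes 23.9% were lower and 25% higher, so these counts do not set the GTPase genes apart. The higher one, Iigp1, was at log2 1.02 ± 0.19 (SE, edgeR adjusted p = 0.000445), and the lower ones, named like it after their values were seen, were Gbp7 (log2 -0.67 ± 0.14, edgeR adjusted p = 0.00146), Gbp2 (-0.42 ± 0.12, adjusted p = 0.0103) and Irgm2 (-0.38 ± 0.15, adjusted p = 0.0448). The Irgm2 call did not hold without control mouse 24 or 26, WT bleomycin mouse 4, 5, 4-B2 or 7, or CB1R KO mouse 8 (edgeR adjusted p from 0.054 to 0.178), in limma on either TPM scale (0.105 and 0.117), with label style as a batch term (0.0576) or among the libraries with lower-case labels (0.238). The Gbp2 call did not hold among the libraries with lower-case labels (0.133).

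**Figure D4:**
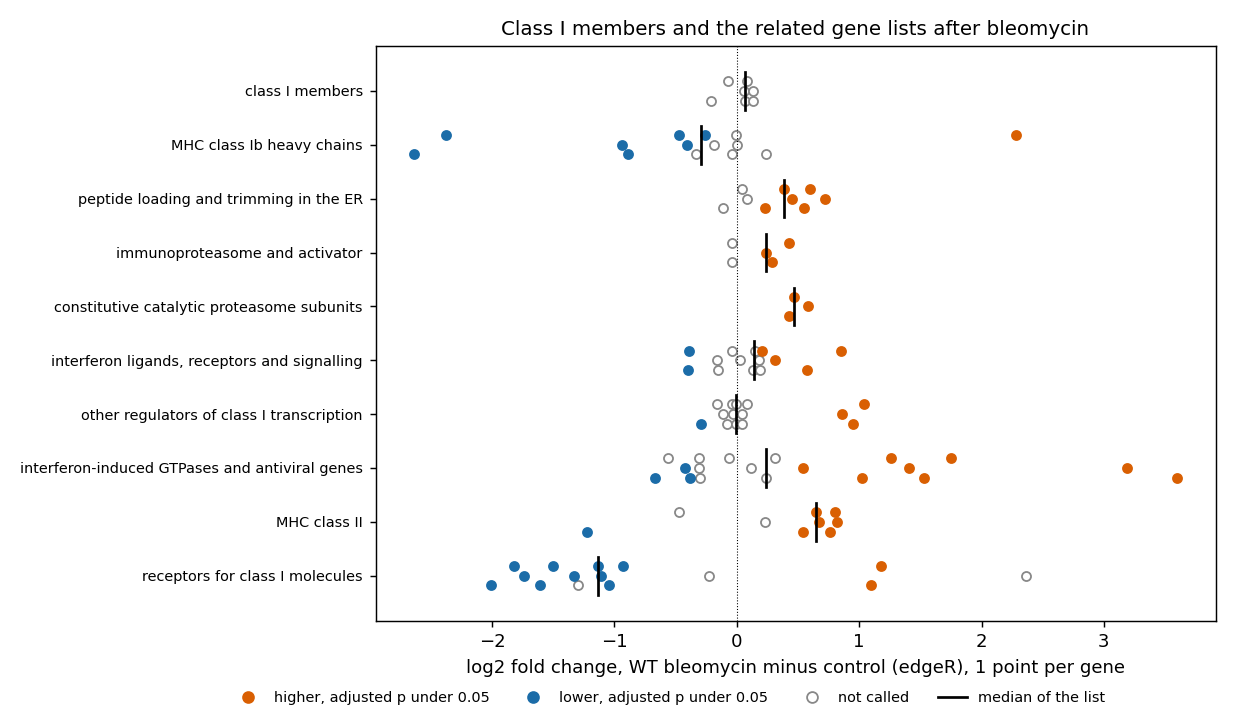
Log2 fold change between WT bleomycin and control lungs (x axis) of each tested gene (points) of the class I members and 9 related lists (y axis), coloured by edgeR call, with the list median as a line. The 7 members lie between -0.21 and 0.13 with none called, while MHC class II genes have a median of 0.65 and receptors for class I molecules a median of -1.13.

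MHC class II products present extracellular peptides to CD4 T cells. Of 9 genes tested, 6 were higher and 1 lower in WT bleomycin lungs (list median log2 0.65, class I members 0.07). H2-DMb1, which helps load class II, rose from 57.8 to 69.1 CPM to 101 to 117 CPM (log2 0.76 ± 0.08 SE, edgeR adjusted p = 3.04e-06). The class II chains H2-Ab1 (0.82 ± 0.13, adjusted p = 0.00011), H2-Eb1 (0.80 ± 0.13, adjusted p = 0.000197) and H2-Aa (0.65 ± 0.12, adjusted p = 0.000437) rose as well. H2-Ob, the subunit of an inhibitor of class II loading, was the gene that fell (log2 -1.22 ± 0.24, edgeR adjusted p = 0.000773). Markers of monocyte-derived macrophages, 7 of 8 of them higher, summed to 358 to 498 CPM in control and 1123 to 1317 in WT bleomycin lungs, and their part in the class II values was not tested.

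Genes listed as receptors for class I molecules mostly fell. Whether each of them binds a class I molecule of these mice was not examined. Of 15 tested, 10 were lower and 2 higher in WT bleomycin lungs (list median log2 -1.13). Cd8a, the T cell coreceptor, fell from 9.86 to 15.2 CPM to 4.64 to 7.47 CPM (log2 -1.13 ± 0.17 SE, edgeR adjusted p = 8.54e-05). The NK cell receptors Klra8 and Klra4 fell by 2.01 ± 0.28 and 1.82 ± 0.30 on the log2 scale (edgeR adjusted p = 4.11e-05 and 0.000193), and Pira2, an activating receptor of myeloid cells, rose (log2 1.18 ± 0.17, adjusted p = 6.53e-05). T and NK cell markers, 6 of 10 of them lower, summed to 96.8 to 140 CPM in control and 48 to 71.3 in WT bleomycin lungs. Their part in the receptor values was not tested.

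CB1R KO bleomycin lungs were set against the same control mice as the WT bleomycin lungs, so the 2 sets of counts are not independent. Beside the counts that follow, 19% of all tested genes were higher, 16.3% lower and 35.4% called in either direction. The loading list had 6 of 9 genes higher, the immunoproteasome and activator list 3 of 5, and the constitutive proteasome list 3 of 3, with 0 lower. MHC class II had 6 higher and 1 lower of 9, interferon-induced genes 8 higher and 1 lower of 19, interferon signalling 4 higher and 1 lower of 14, other regulators 3 higher and 1 lower of 14, and class I receptors 2 higher and 8 lower of 15. The interferon signalling and other regulator counts lie near the share of all genes. Among class Ib genes, 1 of 14 was higher (H2-M2, log2 2.05 ± 0.43, edgeR adjusted p = 0.00201) and 1 lower (H2-Q10, -1.40 ± 0.47, adjusted p = 0.0328), beside 7 lower in WT bleomycin lungs. The H2-Q10 call did not hold without control mouse 3 or 26 or CB1R KO mouse 8, 10 or 11 (edgeR adjusted p from 0.0627 to 0.129), with label style as a batch term (0.0689), with edgeR on these 2 groups (0.0732), among the libraries with lower-case labels (0.125), or with limma on log2(TPM + 1) and log2(TPM + 0.1) (0.119 and 0.148).

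Between CB1R KO and WT bleomycin lungs, 0 of the 102 tested genes of the 9 lists were called by edgeR. The lowest p in each list belonged to genes such as H2-Q6 above, Creb1 (log2 0.25 ± 0.07 SE, edgeR adjusted p = 0.106), Sec61a1 (-0.15 ± 0.06, adjusted p = 0.192), Psmb6 (-0.19 ± 0.07, adjusted p = 0.212), Irf1 (0.21 ± 0.08, adjusted p = 0.215) and Klra7, an NK receptor (0.95 ± 0.31, adjusted p = 0.146). At an unadjusted p under 0.05 there were 4 of 14 class Ib genes, all higher in CB1R KO mice, and 8 of 15 receptors, 7 higher and 1 lower, where 17% of all tested genes had such a p, 7.95% higher and 9.08% lower. The lower receptor was the inhibitory Pirb (log2 -0.66 ± 0.27, edgeR adjusted p = 0.222), named after its value was seen. DESeq2 on all libraries called Creb1 too (adjusted p = 0.0361). Without WT bleomycin mouse 4, edgeR called the NK receptor Klra4 (log2 1.25, adjusted p = 0.0337), which was otherwise at 0.89 ± 0.31 (0.162).

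Within groups the members rose and fell together to differing degrees. After removal of the group means, Pearson's r over the 13 libraries was 0.74 between H2-K1 and H2-D1, 0.74 between Tap2 and Nlrc5, 0.68 between Tap1 and Nlrc5 and 0.62 between Tap1 and Tap2. Tapbp with the heavy chains gave the lowest of the 21 pairs, at 0.09 with H2-K1 and -0.14 with H2-D1. It was at 0.12 with B2m, 0.21 with Nlrc5, 0.31 with Tap2 and 0.43 with Tap1. Low values were also seen between H2-D1 and Nlrc5 (0.17) and between H2-D1 and Tap2 (0.18). These are descriptions over libraries that share groups and a common scaling. CB1R KO mouse 10 had the highest members on average relative to its group (1.06 SD) and CB1R KO mouse 9 the lowest (-1.08 SD).

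The 10 genes that followed the mean of the members most closely, out of 12570 with a mean log2 CPM of at least 2, were Gm12185, Zfp268, H2-Eb1, Senp1, Cdc27, H2-DMa, Ifi47, Tmf1, Gvin1 and Tgtp1. Pearson's r ran from 0.94 to 0.84 and Spearman's rho from 0.92 to 0.81, and without CB1R KO mice 9 and 10, the farthest from the median, r ran from 0.93 to 0.75. H2-Eb1 and H2-DMa belong to MHC class II, and Ifi47, Gvin1 and Tgtp1 are interferon-induced GTPase genes. H2-Eb1 differed from control in WT bleomycin lungs (above), with a log2 fold change of 0.80. H2-DMa did too (0.54 ± 0.11 SE, edgeR adjusted p = 0.00106). Over the 10 genes this log2 fold change ran from -0.51 (Gm12185) to 1.39 (Tgtp1).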

How the data were processed

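The authors prepared NEBNext Ultra II libraries from oligo(dT)-enriched RNA, quantified paired reads with kallisto on the Ensembl release 105 mouse reference (GRCm39 per the labels) and summed protein-coding transcripts per gene. The deposited tables hold their estimated counts, not normalized, and their TPM values, which sum to 821763 to 854358 per library. Each of the 13 tables of 1 sample repeated the columns of the tables of the series. The TPM table has 1 further column that matches no sample and was not used.

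The estimated counts were rounded and filtered with filterByExpr, scaled by TMM and fitted in edgeR 4.0.16 under R 4.3.3 (quasi-likelihood test, all 13 libraries in 3 groups), with Benjamini-Hochberg adjustment over 15315 genes and a threshold of 0.05. CPM use library sizes after TMM scaling, and summed marker levels use the unscaled library totals. Standard errors of log2 fold changes had a median of 0.11 to 0.12. TPM ratios were compared on the log2 scale with two-sided exact permutation tests, whose smallest possible p was 0.00794 for 5 against 4 mice and 0.0286 for 4 against 4. Both comparisons with control share the same control mice. The procedure was tested on simulated data.

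The members, lists and tests were chosen with earlier results of these data known. Named genes were the members, the up to 4 genes of each list with the lowest p between WT bleomycin and control and up to 2 between CB1R KO and WT bleomycin, and the 10 genes most like the members. Gbp2, Gbp7, Iigp1, Pirb, Ifng, Tapbpl and Ganab were named outside this rule. Alternatives were RLE and upper-quartile factors, no filter, a minimum of 10 counts per library, DESeq2 1.42.0 on all libraries or 2 groups, limma 3.58.1 on log2(TPM + 1) and log2(TPM + 0.1), edgeR on 2 groups, label style as a batch term, lower-case labels alone, CB1R KO mouse 11 thinned, and each mouse left out.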

Additional observations from a re-analysis of the deposited data

Results flagged for a closer look

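Of 153 groups of values examined, 7 held a mouse far from the rest of its group by Dixon's criterion, where chance gives about 1 in 20. The gap to the nearest mouse, as a share of the range of the group, was 0.914 for H2-K1 in control mouse 24 (1202 CPM, the next at 1090), 0.841 for Tap2 in CB1R KO mouse 10 (50.6 CPM, the next at 45.6) and 0.864 for Tapbp in CB1R KO mouse 9 (242 CPM, the next at 276). Without control mouse 24, H2-K1 was still higher in CB1R KO bleomycin than in control (log2 0.35; edgeR adjusted p = 0.00341).

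Among the other named genes the share was 0.948 for H2-M2 in control mouse 21 (3.48 CPM, the next at 1.03) and 0.939 for H2-T24 in control mouse 3 (38 CPM, the next at 30.2). It was 0.896 for Klra4 in CB1R KO mouse 8 (3.14 CPM, the next at 2.36) and 0.852 for Psme2 in control mouse 24 (66.7 CPM, the next at 61.5). The H2-M2, H2-T24, Klra4 and Psme2 calls between WT bleomycin and control held in every fit that left out 1 mouse and gave them a value.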

How the results depend on the processing

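No member was called between WT bleomycin and control in any of the 25 alternatives, and H2-K1 was called between CB1R KO bleomycin and control in all 25 (log2 0.29 to 0.39). The number of members called there was 1 in place of 2 with edgeR on 2 groups and with lower-case labels alone, and 1 to 2 with a mouse left out, H2-D1 being the one lost. Between CB1R KO and WT bleomycin it was 1 in place of 0 with DESeq2 on all libraries. The number of all genes called between CB1R KO and WT bleomycin, 150 in the report, was 646 and 648 with DESeq2 on all libraries and on 2 groups, 81 and 3 with limma on log2(TPM + 1) and log2(TPM + 0.1), 41 with label style as a batch term, 88 with edgeR on 2 groups, 6 with lower-case labels alone, and 1 to 653 with a mouse left out (1 without CB1R KO mouse 9, 653 without CB1R KO mouse 10). The cause was not tested.

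Sign changes concerned only values that were not called. With limma on TPM, Tap2 was at 0.07 in WT bleomycin and 0.06 in CB1R KO bleomycin against control, and Nlrc5 at 0.04 and 0.05 in CB1R KO bleomycin. The medians over all genes in these limma fits were 0.03 and 0.04 for WT bleomycin and 0.07 and 0.08 for CB1R KO bleomycin against control. With lower-case labels alone Tap1 was at -0.04 in WT bleomycin against control and Tapbp at -0.01 in CB1R KO against WT bleomycin, and with the batch term Tapbp was at -0.04. With a mouse left out, log2 differences ran from -0.02 to 0.14 for B2m, -0.00 to 0.08 for Tapbp and -0.06 to 0.16 for Psmb8 in CB1R KO against WT bleomycin, from -0.13 to 0.01 for Nlrc5 in CB1R KO bleomycin against control, and for the heavy chain to B2m ratio from -0.06 to 0.03 in WT bleomycin and -0.01 to 0.15 in CB1R KO bleomycin against control. No paired analysis was possible because the groups share no replicate numbers.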
